A study of Mus musculus with 48 samples.

Results

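De novo lipogenesis is the making of fatty acids from carbohydrate-derived carbon, and the 10 genes described here encode its enzymes, its main regulators and the insulin-regulated glucose transporter. The enzymes are Acly (ATP citrate lyase), Acss2 (a cytosolic acetyl-CoA synthetase), Acaca and Acacb (the acetyl-CoA carboxylases), Fasn (fatty acid synthase) and Me1 (cytosolic malic enzyme). Srebf1 and Mlxipl encode the transcription factors SREBP-1 and ChREBP, Thrsp encodes the lipogenic protein Spot 14, and Slc2a4 encodes the glucose transporter GLUT4. The genes were chosen by name, from the 56748 gene rows of the deposited count files, and all 10 were found and passed the filter on low counts in every tissue sampled. The tissues were liver, BAT (brown fat, the heat-producing depot) and eWAT (white fat of the epididymal pad). Bulk RNA sequencing had been done on these 3 tissues of male littermate mice of the genotypes hepAGT+/+ (WT) and hepAGT-/- (KO), the latter lacking Agt, the gene for angiotensinogen, in hepatocytes. Over 12 weeks all mice, controls included, ate a Western diet that held 0.2% cholesterol and 21% milk fat. Housing was either RT (room temperature of 20 to 22 °C) or TN (thermoneutrality, 30 °C), at which a mouse needs no extra heat production. Each of the 12 groups of tissue, genotype and housing holds 4 libraries, which the labels call biological replicates. The labels used here do not state the mouse strain, the age of the animals or the Cre driver behind the hepatocyte deletion, and there is no group on a control diet.

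In the pathway, citrate leaves the mitochondria and Acly splits it to acetyl-CoA, while Acss2 makes acetyl-CoA from acetate. Acaca makes the cytosolic malonyl-CoA that Fasn extends to palmitate, whereas the malonyl-CoA made by Acacb at the mitochondrial surface restrains fatty acid oxidation. Me1 and the pentose phosphate pathway supply the NADPH that Fasn consumes. Insulin acting through SREBP-1c and sugar acting through ChREBP raise transcription of these enzymes in liver. In BAT, cold exposure is known to raise lipogenesis and fatty acid oxidation together.

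The promoters of Fasn and Acly are shown because Acly was the gene whose levels lay nearest to those of Fasn across the libraries of each tissue. Each run is the 250 bases upstream of the RefSeq start in GRCm38.p6, 5′ to 3′ on the gene's strand, which is the minus strand for both. Capitals mark the letters CCAAT and GGGCGG on either strand, so that their reverse complements ATTGG and CCGCCC are in capitals too.
Fasn, chr11:120824548-120824797: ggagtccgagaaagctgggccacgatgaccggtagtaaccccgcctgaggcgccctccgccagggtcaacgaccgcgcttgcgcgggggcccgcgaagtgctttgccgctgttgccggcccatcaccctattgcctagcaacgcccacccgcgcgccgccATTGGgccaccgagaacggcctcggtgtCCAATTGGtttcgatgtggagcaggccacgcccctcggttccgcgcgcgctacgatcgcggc
Acly, chr11:100528001-100528250: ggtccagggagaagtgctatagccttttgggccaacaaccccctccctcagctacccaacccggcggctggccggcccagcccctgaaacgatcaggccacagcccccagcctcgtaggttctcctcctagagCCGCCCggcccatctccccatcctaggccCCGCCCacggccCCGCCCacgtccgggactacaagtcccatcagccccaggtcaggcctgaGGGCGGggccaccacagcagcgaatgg
The Fasn window holds CCAAT letters at -62 to -58 and, on the other strand, at -90 to -86 and -59 to -55, counted from the base before the start. The match at -59 to -55 overlaps that at -62 to -58. The Acly window holds no CCAAT but GGGCGG letters at -27 to -22 and, on the other strand, at -117 to -112, -88 to -83 and -76 to -71. Of the 10 genes 9 had a promoter entry, with 13 windows in all, and 8 of the 13 windows held CCAAT (7 genes), beside 33.8% of all 32851 mouse windows. The letters GGGCGG were in 6 of the 13 windows (5 genes), beside 32.7% of all windows. The E-box letters CACGTG (6.02% of all windows) and the sterol regulatory element letters TCACNCCAC (1.05%) were found only in windows of Mlxipl, and the TATA box letters TATAAA (12.4%) only in that of Acacb. These matches describe letters and not sites that a factor was shown to bind.

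Library totals ranged from 23.7 to 36.5 megacounts in liver, 25.3 to 39.4 megacounts in BAT and 28.7 to 43.7 megacounts in eWAT. The deletion was checked in liver first, where Agt lay between 276 and 504 CPM (counts per megacount of the library, with TMM scaling) in the 8 WT libraries and between 125 and 207 CPM in the 8 KO libraries. Agt was 2.20-fold lower in KO at RT (edgeR quasi-likelihood test with Benjamini-Hochberg adjustment over all genes tested, adjusted p = 0.0096) and 2.45-fold lower at TN (adjusted p = 0.0011), so it was lower in KO liver but still detected there. Tissue markers followed the labels. Their sums, here and below, are CPM of library totals without TMM scaling. The 4 brown adipocyte markers (Ucp1, Cidea, Cox7a1 and Ppargc1a) summed to at least 2634 CPM in every BAT library and at most 37.0 CPM in the other tissues. The 5 hepatocyte markers summed to at least 46210 CPM in liver, and to between 4.33 and 4045 CPM in the 2 fat depots. In the text below a gene is called changed when its adjusted p from edgeR is under 0.05.

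The clearest result for these genes was in BAT, where the lipogenic program was far lower in warm-housed mice. All 10 genes fell from RT to TN in WT, against 16.7% of all 18032 genes tested that were called lower in that comparison (32.5% were called in either direction). In KO 8 of the 10 fell, against 8.52% of all genes called lower (15.2% in either direction). The median log2 difference of the 10 genes was -2.56 in WT and -1.99 in KO, beside 0.11 and 0.04 for all genes tested. The TMM factors of the BAT libraries did not overlap between housings, at 0.751 to 0.977 at RT and 1.03 to 1.32 at TN. The scaling thus lowers TN values against RT values. This weighs most on the smaller falls, such as those of Srebf1, Mlxipl and Slc2a4. No fit without scaling was run. In these bulk samples, fewer cells of a type and less RNA per cell cannot be told apart.

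Fasn was the most abundant of the genes in BAT and showed the largest difference. Its level at RT was 17400, 12967, 15734 and 24684 CPM in the WT libraries numbered 12, 15, 17 and 18, and 9166, 15515, 13771 and 15669 CPM in the KO libraries 9, 10, 14 and 19. At TN it was 945, 569, 656 and 2930 CPM in the WT libraries 1, 6, 7 and 24, and 993, 3173, 584 and 854 CPM in the KO libraries 2, 3, 4 and 5. Every RT library thus lay above every TN library, and WT library 24 and KO library 3 stood above the other TN libraries. The log2 difference, TN minus RT, was -3.79 ± 0.62 (SE) in WT (13.9-fold lower, adjusted p = 0.00041) and -3.27 ± 0.60 in KO (9.66-fold lower, adjusted p = 0.0024).

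Acly, which supplies the acetyl-CoA, followed Fasn. WT libraries held 3457, 2151, 2920 and 5904 CPM at RT and 230, 182, 202 and 831 CPM at TN, in the same library order. KO libraries held 1886, 4020, 1886 and 2804 CPM at RT and 248, 894, 229 and 210 CPM at TN. The same pair of TN libraries, WT 24 and KO 3, stood highest in their groups. Acly fell 9.98-fold in WT (log2 difference -3.32 ± 0.64, adjusted p = 0.0015) and 6.70-fold in KO (-2.75 ± 0.62, adjusted p = 0.0093). Without the 5 BAT libraries richest in skeletal muscle transcripts (below), the KO difference was -2.68 with an adjusted p of 0.054. Acss2, the acetate branch, had means of 711 ± 191 CPM (SD, n = 4) in WT at RT and 105 ± 39 CPM at TN, and of 629 ± 129 and 101 ± 22 CPM in KO. It fell 6.75-fold in WT and 6.22-fold in KO (adjusted p = 1.93e-06 and 4.99e-06), and its RT range of 485 to 952 CPM did not touch its TN range of 80.3 to 162 CPM. Acss2 overlaps Gss, Ggt7 and Acss2os on the other strand, of which Gss had a mean of 1406 counts per library. Acss2 itself had 2707 to 5404 counts in the BAT libraries at TN and 2258 to 11437 in liver. The strand setting of the counting is not given in the sources used here, so reads of these genes may be mixed in every tissue.

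The carboxylases did not move by the same amount. Acaca, which makes the substrate of Fasn, held 3025, 2212, 2553 and 4003 CPM in WT at RT and 410, 316, 347 and 687 CPM at TN. In KO it held 1427, 2542, 2107 and 2645 CPM at RT and 297, 789, 313 and 246 CPM at TN. It fell 6.70-fold in WT (log2 difference -2.74 ± 0.37) and 5.30-fold in KO (-2.41 ± 0.36). Acacb, the isoform tied to control of fatty acid oxidation, held 1355, 1097, 1163 and 1301 CPM in WT at RT and 526, 392, 562 and 381 CPM at TN. Its KO libraries held 1068, 1298, 1544 and 1504 CPM at RT and 342, 535, 561 and 635 CPM at TN. Acacb fell 2.64-fold in WT (log2 difference -1.40 ± 0.20) and 2.61-fold in KO (-1.38 ± 0.20), and for neither carboxylase did the housing groups overlap. At RT the means of Acaca and Acacb were 2948 and 1229 CPM in WT, and at TN they were 440 and 465 CPM. The difference between the responses of the 2 genes was not tested.

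Me1, which yields NADPH, held 902, 1128, 1265 and 1647 CPM in WT at RT and 129, 118, 116 and 254 CPM at TN. KO libraries held 618, 1142, 980 and 1012 CPM at RT and 156, 124, 87.7 and 112 CPM at TN. It fell 7.99-fold in WT and 7.82-fold in KO (adjusted p = 1.96e-06 and 4.18e-06). Thrsp, the carboxylase-associated Spot 14 protein, held 3093, 4017, 5496 and 5347 CPM in WT at RT and 764, 547, 643 and 1488 CPM at TN. In KO it held 3903, 4227, 2444 and 3515 CPM at RT and 926, 1580, 981 and 1245 CPM at TN. It fell 5.21-fold in WT (log2 difference -2.38 ± 0.30) and 2.98-fold in KO (-1.57 ± 0.30), but the interaction of housing and genotype, 0.81 ± 0.41 on the log2 scale, did not pass the test (adjusted p = 0.51). Slc2a4, the glucose transporter, had means of 372 ± 70 CPM in WT at RT and 183 ± 46 CPM at TN, a 2.03-fold fall (adjusted p = 0.0025). In KO its means were 367 ± 55 and 239 ± 88 CPM (log2 difference -0.62 ± 0.23, adjusted p = 0.077), with TN library 3 at 369 CPM inside the RT range. Without that library the KO difference passed the test (-0.88, adjusted p = 0.0095). The interaction with all 16 libraries was 0.40 ± 0.32 (adjusted p = 0.66).

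**Figure D1:**
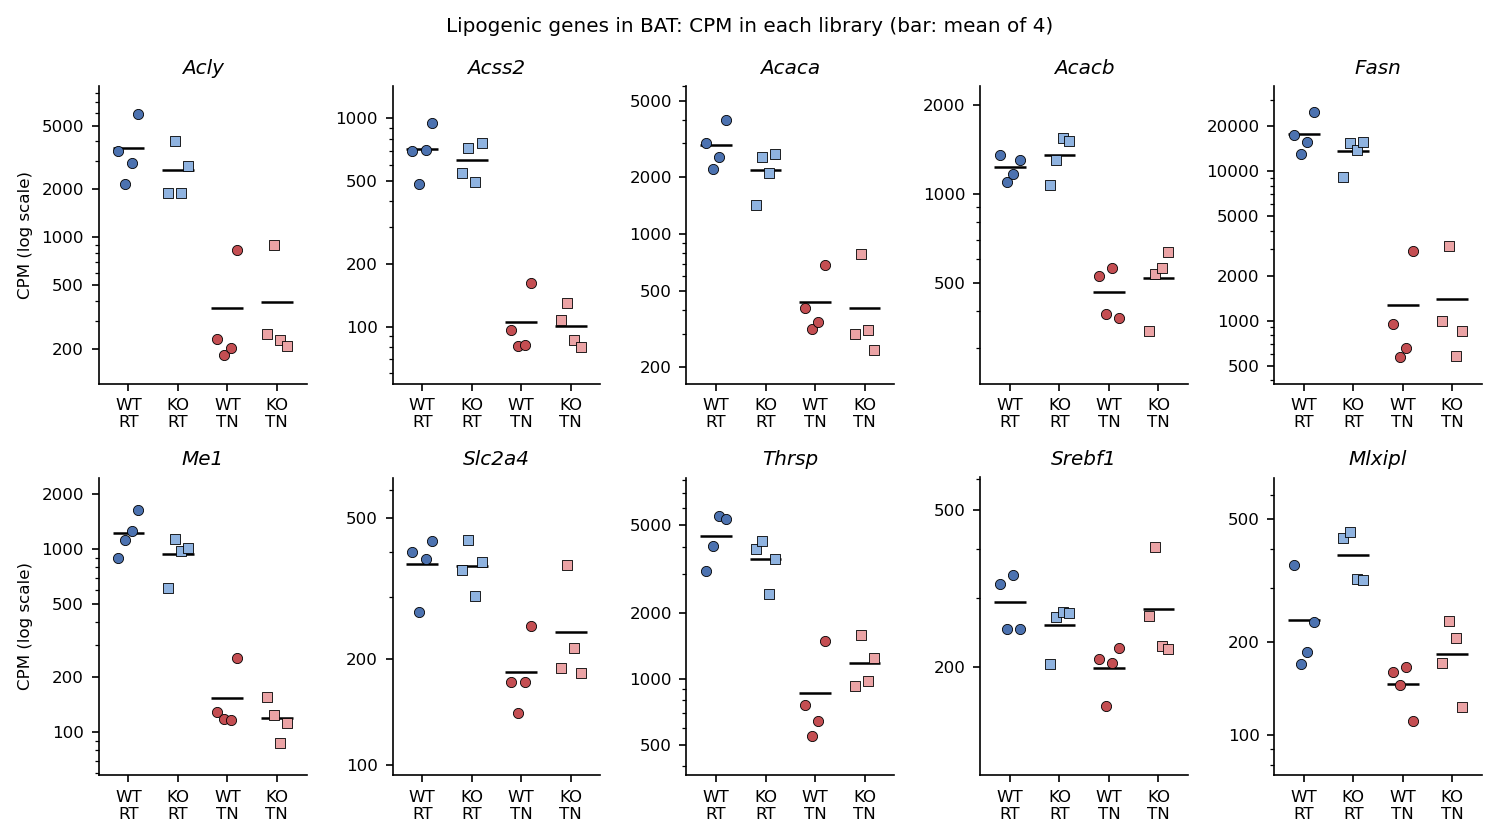
CPM of the 10 genes in each of the 16 BAT libraries, on log axes, for WT and KO mice at RT and TN. Points are libraries and bars are means of 4. For Fasn the RT libraries lie between 9166 and 24684 CPM and the TN libraries between 569 and 3173 CPM, while the KO groups of Srebf1 overlap.

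The transcription factor genes had smaller log2 differences between the housings than most of the enzymes, a contrast between genes that was not tested. Srebf1 held 325, 250, 342 and 251 CPM in WT at RT and 210, 160, 205 and 224 CPM at TN. This 1.46-fold fall passed the test (log2 difference -0.55 ± 0.19, adjusted p = 0.036), but not with no filter on low counts (0.052) or without any 1 of WT libraries RT 12, RT 17, TN 1, TN 6 and TN 7 (adjusted p up to 0.15). The fall of Srebf1 in WT also depends on the TMM scaling described above. In KO it held 204, 269, 277 and 275 CPM at RT and 270, 404, 226 and 223 CPM at TN, with overlapping groups and a log2 difference of 0.13 ± 0.19 (adjusted p = 0.73). The interaction for Srebf1 was 0.68 ± 0.27 (adjusted p = 0.47), so the genotypes were not shown to differ in their response. Mlxipl held 355, 170, 186 and 232 CPM in WT at RT and 160, 146, 166 and 111 CPM at TN (log2 difference -0.69 ± 0.24, adjusted p = 0.031). That call was lost when only the 8 libraries compared were fitted (adjusted p = 0.052) and without any 1 of WT libraries RT 12, RT 18, TN 6 and TN 24 (up to 0.13), the difference being -0.43 without RT 12. In KO it held 433, 454, 320 and 317 CPM at RT and 171, 233, 206 and 123 CPM at TN, a 2.08-fold fall (adjusted p = 0.0054). Only total reads per gene were counted, so the SREBP-1a and SREBP-1c transcripts of Srebf1, and the isoforms of Mlxipl, are not separated. Srebf1 overlaps the gene Rai1 on the other strand, with the same doubt about strand as for Acss2.

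Skeletal muscle transcripts varied widely among the BAT libraries, with overlapping housing groups, and are a limit on this comparison. The sum of 6 muscle markers (Acta1, Ckm, Mylpf, Tnnt3, Myh4 and Pvalb) ranged from 1.34 to 433 CPM in WT at RT, 7.32 to 4673 CPM in WT at TN, 2.15 to 3261 CPM in KO at RT and 1.19 to 6540 CPM in KO at TN. In KO TN libraries 3 and 4, 4 of the 6 were at 0. When the 5 BAT libraries above 1000 CPM were left out (WT TN 6 and 24, KO RT 14 and 19, KO TN 2), 8 of the 10 genes were still called lower in WT and 7 of 10 in KO. The WT calls lost were Srebf1 (adjusted p = 0.17) and Mlxipl (adjusted p = 0.21). Fasn then differed by -4.46 in WT and -2.95 in KO on the log2 scale, and leaving out 1 BAT library at a time gave 8 to 10 calls in WT and 8 to 9 in KO. The brown adipocyte markers were also lower at TN, with sums of 6694 to 11407 CPM at RT and 2634 to 6500 CPM at TN. At TN their sum was highest in WT library 24 (6500 CPM) and, within KO, in library 3 (5398 CPM). These are the libraries that stood highest for Fasn and Acly. The 4 macrophage markers were higher at TN, at 58.8 to 140 CPM against 17.0 to 41.3 CPM at RT. On library totals the 4 adipocyte markers (Adipoq, Plin1, Cfd and Retn) were higher at TN as well, without overlap. Their sums were 1771 to 2082 CPM in WT and 1612 to 2097 CPM in KO at RT. At TN they were 2521 to 3212 CPM in WT and 2876 to 5038 CPM in KO. The TMM factors were higher at TN, so this rise is not on the scale of the gene values. With TMM scaling it would be smaller, and the WT groups would overlap. The hepatocyte marker sum averaged 101 CPM at RT and 469 CPM at TN in WT, and 203 and 930 CPM in KO, with overlapping groups. The part of these marker lists in the lipogenic result was not tested.

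Genes of the steps before and after the pathway fell with it in BAT. Among 8 genes that supply carbon, 5 fell in WT and 4 in KO, and none rose in either. They were led by the mitochondrial pyruvate carrier subunits Mpc1 and Mpc2 (log2 difference -2.19 and -2.35 in WT), the citrate carrier Slc25a1 (-2.48), whose product Acly uses, and the pyruvate kinase Pkm (-1.80). All 5 NADPH genes fell in both genotypes, the largest WT difference being that of Pgd (-2.53), with Tkt at -2.37, G6pdx at -2.13 and Taldo1 at -2.04, all enzymes of the pentose phosphate pathway. All 6 genes of downstream steps fell in both genotypes. Elovl6, the elongase that acts on palmitate, dropped from 1307 ± 275 to 102 ± 27 CPM in WT and from 1173 ± 273 to 96.3 ± 31.6 CPM in KO (log2 difference -3.67 and -3.61). Of the desaturase Scd1 the WT mean went from 81350 to 31800 CPM (log2 difference -1.36). Of 12 other regulators, 4 fell and 1 rose in WT, and 3 fell in KO, beside 32.5% and 15.2% of all genes called in either direction, so nothing particular to this list is read from its counts. Insig1, which retains the SREBP complex in the endoplasmic reticulum and is itself a sterol and SREBP target, had the largest fall in both (-2.09 and -2.47). Mlx, the partner of ChREBP, fell by 1.43 and by 0.83 on the log2 scale, and the one regulator that rose in WT was Usf1 (0.44 ± 0.15), named after its values were seen and called in 10 of 16 fits that left out 1 library.

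Genotype made no called difference to the 10 genes in BAT. At RT 0 of 10 were called, beside 16 of 18032 genes (0.0887%), and only Mlxipl was at an unadjusted p under 0.05, as were 19.4% of all genes. Its mean was 381 ± 73 CPM in KO and 236 ± 84 CPM in WT (log2 difference 0.69 ± 0.24, adjusted p = 0.14), with WT library 12 at 355 CPM inside the KO range, and without that library the difference was 0.96 (adjusted p = 0.014). DESeq2 called Mlxipl (adjusted p = 0.044), beside 5.44% of all genes. At TN 0 of 10 were called, beside 0% of all genes, with Srebf1 alone under an unadjusted p of 0.05, beside 5.24% of all genes (log2 difference 0.49 ± 0.19, adjusted p = 0.85), and DESeq2 called none of the 10. The test of interaction between genotype and housing called 0 of the 10 in BAT, in liver or in eWAT, again beside 0% of all genes in each. At an unadjusted p under 0.05 it had 1 of the 10 in BAT, which is Srebf1, beside 10.2% of all genes, and 0 in liver and eWAT, beside 7.33% and 7.6%. DESeq2 called none of the 10.

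The difference between housings varied among the tissues for most of the enzymes. In 1 fit over all 24 WT libraries, an F test of whether the housing difference varied among BAT, liver and eWAT called 7 of the 10 genes, beside 13.2% of 19967 genes. These were Me1 (adjusted p = 0.00023), Acss2 (0.000295), Acaca (0.00034), Fasn (0.0031), Acly (0.0071), Thrsp (0.016) and Acacb (0.031). In KO 5 were called, beside 4.17% of 20269 genes. They were Me1 (adjusted p = 0.00019), Acss2 (0.00095), Acaca (0.0018), Fasn (0.0057) and Acly (0.040). The weakest calls were not firm. With no filter on low counts Acacb in WT was at 0.0507 and Acly in KO at 0.081. The Acacb call was also lost without any 1 of BAT WT libraries RT 17, RT 18, TN 1 and TN 6 or liver WT libraries RT 11, RT 12, TN 7 and TN 24 (adjusted p up to 0.066). The Acly call was lost in 17 of 24 fits that left out 1 library (adjusted p up to 0.0999), and stood only without BAT RT 9, RT 14 or TN 3, eWAT RT 9, RT 16 or TN 5, or liver RT 16. Neither Srebf1 nor Mlxipl was called in this test in either genotype (adjusted p between 0.23 and 0.40). The housing differences of Fasn in WT were -3.79 in BAT, -0.62 in eWAT and 0.96 in liver, but the liver value was 0.04 without WT TN library 24.

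**Figure D2:**
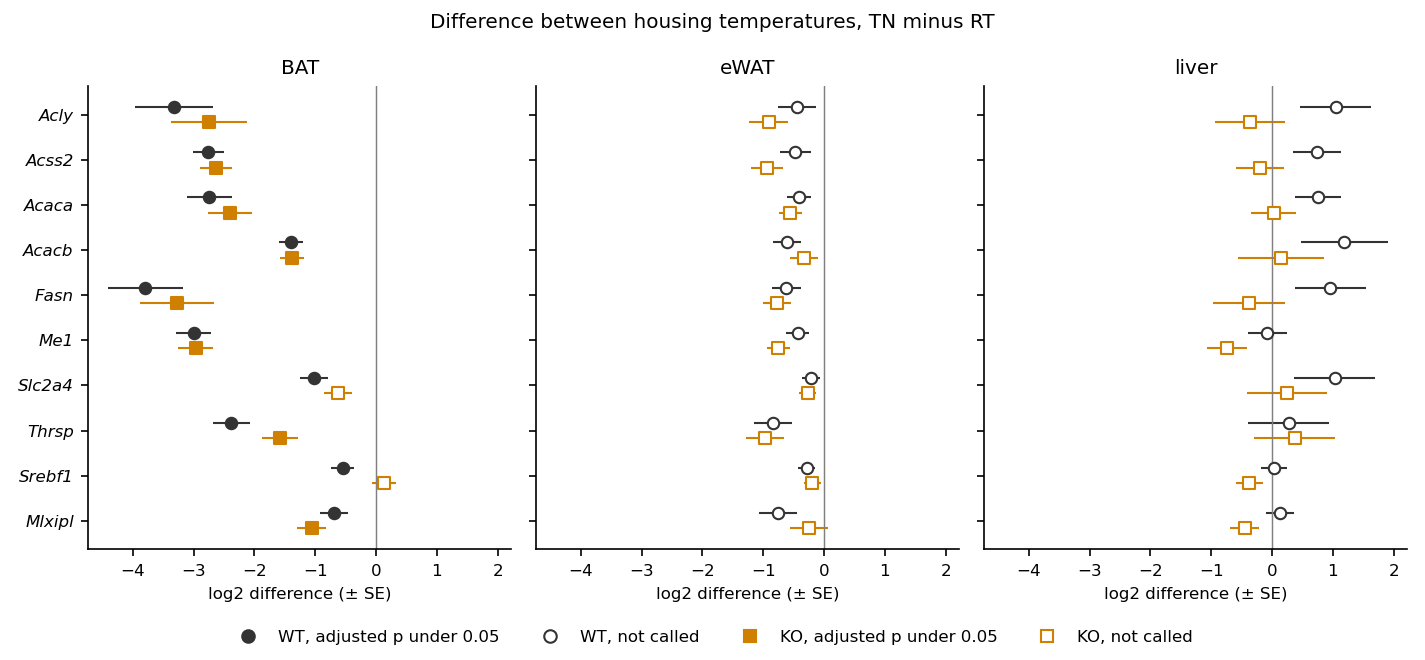
Log2 difference between housing temperatures (TN minus RT) of the 10 genes in BAT, eWAT and liver, in WT (circles) and KO (squares), with SE. Filled symbols have an adjusted p under 0.05. All filled symbols are in BAT, where Fasn is at -3.79 in WT and -3.27 in KO.

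In liver none of the 10 genes was called in any comparison. For KO against WT this was 0 of 10 at RT, beside 0.0853% of 17594 genes, and 0 of 10 at TN, beside 3.18%. For TN against RT it was 0 of 10 in WT, beside 0.0227%, and 0 of 10 in KO, beside 0.114%. At an unadjusted p under 0.05 there was 1 of 10 for genotype at RT and 4 of 10 at TN, beside 10.2% and 17.6% of all genes. For housing there were 0 in WT and 1 in KO, beside 7.25% and 10.5%. DESeq2 called 1 of the 10 for genotype at RT, which is Mlxipl, beside 1.15% of all genes, and 0 in the other liver comparisons.

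One liver library, number 24 of the WT group at TN, stood far above the rest in most of these genes. Fasn was 526, 882, 1295 and 4170 CPM in WT at TN (libraries 1, 6, 7 and 24) and 702, 510, 557 and 515 CPM in KO at TN (libraries 2, 4, 5 and 22). The KO libraries lay in a narrow band at the bottom of the WT range, and the log2 difference was -1.59 (adjusted p = 0.18). Without library 24 it was -0.67 (adjusted p = 0.51). Acly was 194, 202, 255 and 1297 CPM in the WT libraries and 227, 228, 233 and 180 CPM in KO, and its log2 difference went from -1.17 to -0.01 without library 24. That library had the highest level of all 16 liver libraries in 9 of the 10 genes. The exception was Mlxipl, where it was the highest of its group at 751 CPM and ranked 7 of 16. In BAT the library numbered 24 of the same group was the highest of its group in 8 of the 10 genes. The labels do not say whether a number marks the same mouse in each tissue.

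**Figure D3:**
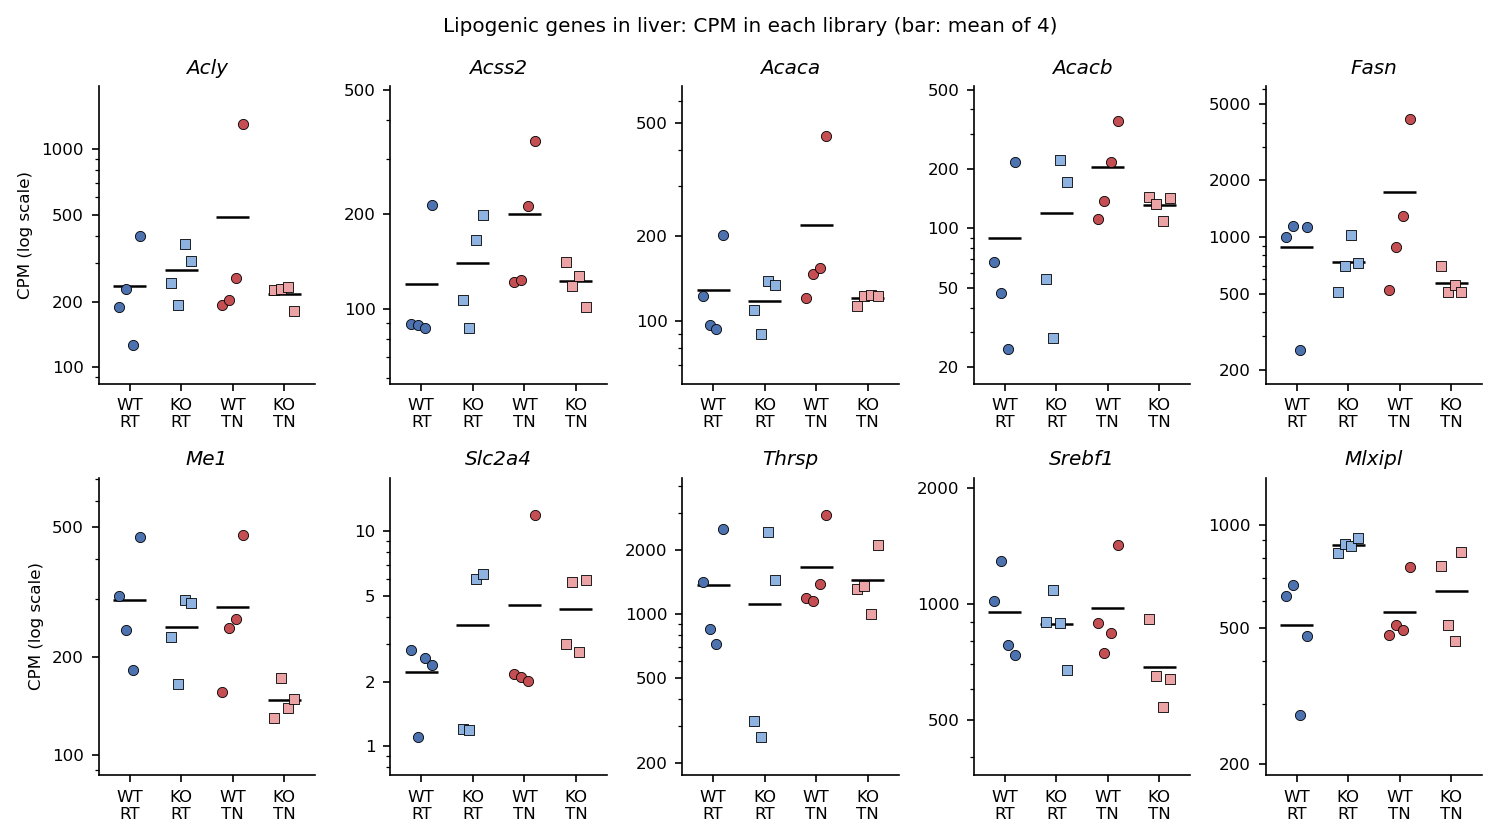
CPM of the 10 genes in each of the 16 liver libraries, on log axes, for WT and KO mice at RT and TN. Points are libraries and bars are means of 4. One WT library at TN is far above the rest for Fasn (4170 CPM) and Acly (1297 CPM), and the other groups overlap for nearly every gene.

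Several liver members also varied widely within groups. At RT, Fasn was 1001, 1148, 253 and 1129 CPM in WT and 515, 707, 1019 and 727 CPM in KO, with overlapping groups. Thrsp ranged from 264 to 2443 CPM within the KO group at RT alone, and Acacb from 28.1 to 222 CPM in the same libraries. Mlxipl was the one gene whose genotype groups were apart at RT, with 621, 666, 278 and 471 CPM in WT and 828, 876, 865 and 916 CPM in KO. This 1.71-fold difference missed the threshold (log2 difference 0.78 ± 0.24, adjusted p = 0.24), and DESeq2 called it (adjusted p = 0.046). At TN its groups overlapped, with means of 557 ± 130 CPM in WT and 638 ± 184 CPM in KO. Srebf1 was the gene with the steadiest group means in liver, from 686 ± 160 CPM in KO at TN to 975 ± 302 CPM in WT at TN. At TN, Me1 had a WT mean of 284 ± 134 CPM and a KO mean of 148 ± 18 CPM (log2 difference -0.94, adjusted p = 0.14). Acaca, Acss2 and Acacb had log2 differences of -0.86, -0.71 and -0.62 in that comparison, and none passed the test. Without WT library 24 these values were -0.23, -0.33 and -0.24, and that of Me1 was -0.59. Slc2a4 was at 1.10 to 11.9 CPM in all liver libraries. Of the other pathway genes, 1 of 5 for NADPH, 2 of 6 for downstream steps, 0 of 8 for carbon supply and 0 of 12 regulators were called in KO against WT liver at TN, all lower. They were Scd1 (44360 ± 6281 CPM in WT and 21590 ± 6169 CPM in KO, adjusted p = 0.010), Elovl5 (log2 difference -0.84, adjusted p = 0.015) and the pentose phosphate enzyme Tkt (-0.77, adjusted p = 0.010). Scd1 and Tkt were called in 16 of 16 fits that left out 1 library and Elovl5 in 15. Immune cell markers moved with this comparison. The 4 B cell and lymph node markers summed to 5.36 to 9.35 CPM in KO at TN and 2.12 to 4.77 CPM in WT at TN, without overlap, and the 4 macrophage markers to 99.3 to 223 CPM and 78.4 to 115 CPM. Their part in the liver values was not tested.

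Among the comparisons of genotype or housing within a tissue, the genotype comparison in eWAT at RT gave the only calls for these genes outside BAT. At RT 2 of 10 were called, both higher in KO, beside 4.34% of 18933 genes called in either direction and 1.2% called higher. Acaca was 607, 420, 468 and 489 CPM in WT (libraries 12, 13, 15 and 18) and 1083, 656, 607 and 931 CPM in KO (libraries 9, 10, 16 and 19). The KO libraries were the higher, although the lowest of them lay within 1 CPM of the highest WT library, and the log2 difference was 0.72 ± 0.19 (adjusted p = 0.041). Slc2a4 was 163, 145, 138 and 98.1 CPM in WT and 210, 188, 182 and 216 CPM in KO, with no overlap (log2 difference 0.55 ± 0.15, adjusted p = 0.042). Both calls were close to the threshold. Acaca lost its call with no filter on low counts (adjusted p = 0.052) and Slc2a4 when only the 8 libraries compared were fitted (0.052) or without KO RT library 10 (0.054), and leaving out 1 eWAT library at a time gave between 0 and 3 calls, with 0 without any 1 of KO RT libraries 9 and 19 or WT libraries RT 13, RT 15, RT 18 and TN 7.

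The other genes of the pathway gave values in the same direction at RT, with exceptions. Thrsp was 1751, 1158, 734 and 829 CPM in WT and 2661, 2203, 1407 and 2052 CPM in KO (log2 difference 0.90, adjusted p = 0.12), and was called without WT library 12 (1.21, adjusted p = 0.035). Acly was 754, 558, 380 and 768 CPM in WT and 1592, 993, 562 and 908 CPM in KO (0.72, adjusted p = 0.24), and Fasn had means of 4815 ± 1292 and 6584 ± 1801 CPM (0.45, adjusted p = 0.35). Srebf1 and Me1 were the exceptions, with log2 differences of -0.05 and -0.08. Of the pathway's other genes, 1 of 8 for carbon supply, 1 of 5 for NADPH, 0 of 6 for downstream steps and 1 of 12 regulators were called at RT. All genes tested were called at 4.34% in either direction. The called genes, all higher in KO, were Mpc1, Tkt and Prkaa1, a catalytic subunit of AMP-activated protein kinase (log2 difference 0.48, 0.65 and 0.56). Prkaa1 was also called higher in KO at TN.

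Cell type markers moved with the genotype in eWAT. The 4 adipocyte markers summed to 12810 to 17072 CPM in KO at RT and 6725 to 9688 CPM in WT at RT, while the 4 macrophage markers summed to 195 to 267 CPM in KO and 257 to 355 CPM in WT. The 5 epididymis markers reached 878 CPM in WT RT library 18 against at most 11.9 CPM in KO RT libraries. Their part in the Acaca and Slc2a4 results was not tested.

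At TN the genotype comparison in eWAT called 0 of 10, beside 0.586% of all genes, with 6 of the 10 under an unadjusted p of 0.05, as were 13.7% of all genes. Mlxipl was 17.2, 22.8, 26.2 and 34.7 CPM in WT (libraries 6, 7, 8 and 23) and 37.7, 35.8, 72.1 and 66.7 CPM in KO (libraries 3, 4, 5 and 21). These groups did not overlap, with a fitted level 2.11-fold higher in KO (log2 difference 1.07, adjusted p = 0.13). DESeq2 called 4 of the 10 here, namely Mlxipl, Acacb, Slc2a4 and Acaca, beside 3.57% of all genes. The log2 differences of Acaca and Slc2a4 were 0.58 and 0.49 at TN, beside 0.72 and 0.55 at RT, and their interactions were -0.14 ± 0.27 and -0.06 ± 0.21 (adjusted p = 0.93 and 0.96). Whether the genotype difference varied among the tissues was tested over the 24 libraries of each housing. The F test called 0 of the 10 at RT, beside 1.33% of all genes, and 0 at TN, beside 0.957%. DESeq2 called 1 at each, Acaca at RT (adjusted p = 0.049, beside 5.55% of all genes) and Acacb at TN (adjusted p = 0.042, beside 5.25%). The higher Acaca of KO eWAT was thus not shown by edgeR to be particular to that tissue.

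**Figure D4:**
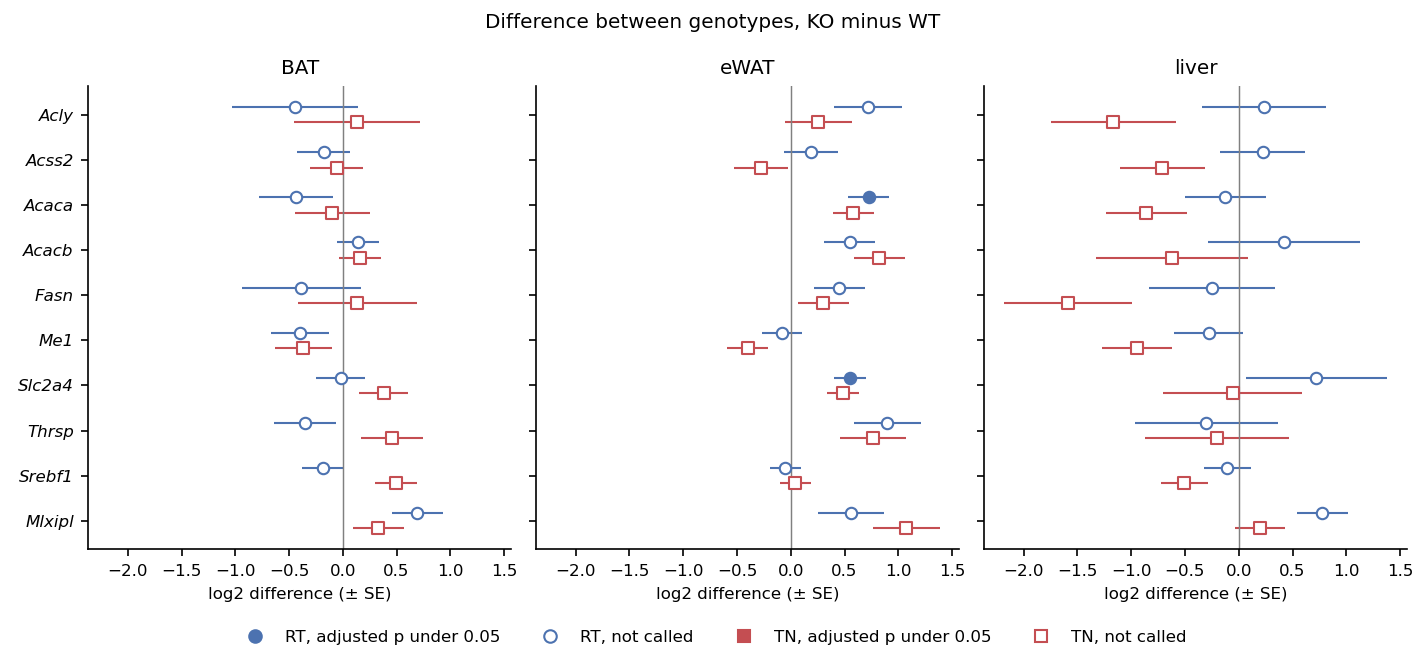
Log2 difference between genotypes (KO minus WT) of the 10 genes in BAT, eWAT and liver, at RT (circles) and TN (squares), with SE. Filled symbols have an adjusted p under 0.05. The filled symbols are Acaca (0.72) and Slc2a4 (0.55) in eWAT at RT.

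The housing comparison in eWAT called none of the 10. All of their values were negative, with a median log2 difference of -0.46 in WT and -0.65 in KO. The medians of all genes tested were -0.014 and 0.021. The 10 genes were measured in the same libraries, so their shared sign is not 10 separate results. In WT 0 of 10 were called, beside 0% of all genes, and the log2 differences lay between -0.84 (Thrsp) and -0.21 (Slc2a4). In KO 0 of 10 were called, beside 1.74%, with values between -0.98 (Thrsp) and -0.19 (Srebf1). At an unadjusted p under 0.05 there were 6 of 10 in either genotype, beside 6.99% of all genes in WT and 17.5% in KO. Me1 in KO was nearest to the threshold, with 1192, 1163, 846 and 1538 CPM at RT and 770, 869, 500 and 668 CPM at TN (log2 difference -0.75 ± 0.19, adjusted p = 0.050), and with RLE scaling it passed (0.047). Its groups met only through RT library 16 and TN library 4. Without RT library 16, Me1 (log2 difference -0.90, adjusted p = 0.019) and Acss2 (-1.12, adjusted p = 0.027) were called. Me1 was also called without WT RT library 15 (0.044) or WT RT library 18 (0.042). The 5 hepatocyte markers summed to 100 to 4045 CPM in KO at RT, the highest being library 16, and to 49.5 to 430 CPM in KO at TN. The part of the hepatocyte markers was not tested. Fasn in KO was 8094, 5194, 4864 and 8184 CPM at RT and 3968, 4338, 2735 and 4370 CPM at TN, without overlap (log2 difference -0.77, adjusted p = 0.10). DESeq2 called 4 genes in KO, namely Me1, Acss2, Fasn and Acaca, beside 6.1% of all genes, and 0 in WT. In KO, 2 of the 8 carbon supply genes (Mpc1 and Slc25a1) and 3 of the 5 NADPH genes (Tkt, Taldo1 and Idh1) fell at TN. The macrophage marker sum was 354 to 390 CPM in KO eWAT at TN, against 195 to 267 CPM at RT, and 368 to 574 CPM in WT eWAT at TN, against 257 to 355 CPM at RT. The part of these markers in the housing values was not tested.

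**Figure D5:**
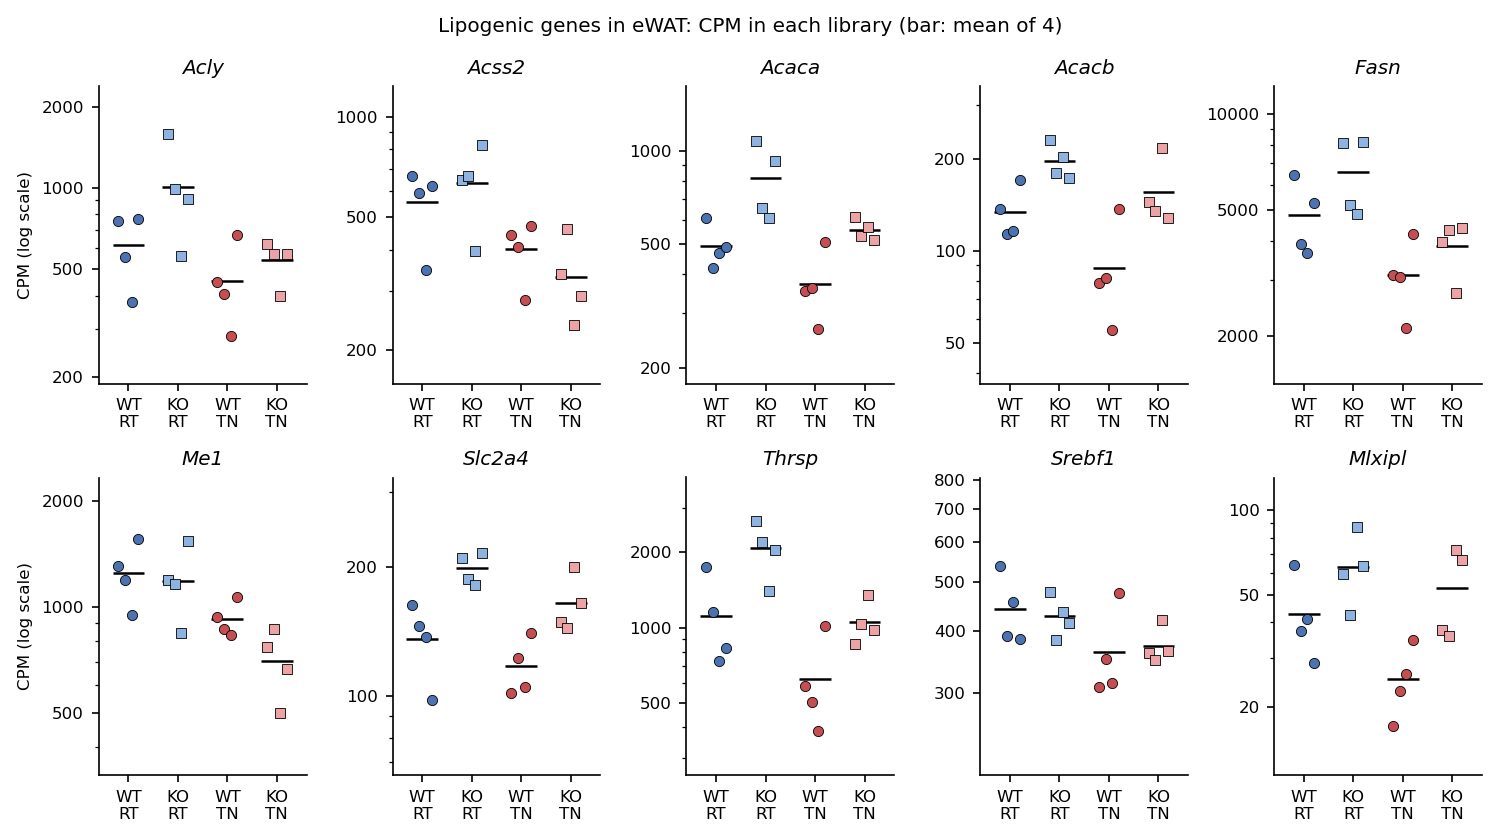
CPM of the 10 genes in each of the 16 eWAT libraries, on log axes, for WT and KO mice at RT and TN. Points are libraries and bars are means of 4. At RT the KO libraries lie higher for Acaca (607 to 1083 CPM against 420 to 607 CPM in WT) and Slc2a4 (182 to 216 CPM against 98.1 to 163 CPM).

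Between tissues of the WT mice at RT, Fasn, Acaca, Acacb, Acly, Thrsp and Slc2a4 were highest in BAT and the transcription factors in liver. All 10 genes differed between BAT and liver, beside 54.6% of all genes. Fasn, Acaca, Acacb, Acly, Me1, Thrsp, Acss2 and Slc2a4 were higher in BAT, by 1.54 (Thrsp) to 7.22 (Slc2a4) on the log2 scale, with Fasn 4.16 higher. Srebf1 and Mlxipl were lower in BAT than in liver (log2 difference -1.87 and -1.27). Between BAT and eWAT 7 of 10 differed (43.3% of all genes), all higher in BAT, and Srebf1, Me1 and Acss2 did not pass the test. Means of Me1 were 1235 CPM in BAT and 1254 CPM in eWAT. Between eWAT and liver 7 of 10 differed (55.1% of all genes), with Srebf1 and Mlxipl lower in eWAT (-1.61 and -4.08). The order for Fasn at RT was thus BAT, eWAT, liver, with means of 17696, 4815 and 883 CPM, each neighbour apart (log2 difference 2.21 and 1.95, adjusted p = 0.0062 and 0.010).

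At TN the counts of the 10 genes that differed between tissues lay near the shares of all genes. Nothing particular to the 10 is read from these counts, and they were not tested against those at RT. Between BAT and liver 7 of 10 differed (51.1% of all genes), with Me1, Thrsp and Acss2 lower in BAT (log2 difference -1.02, -1.09 and -1.07). Without liver library 24 these 3 calls were lost, at -0.67, -0.68 and -0.69 (adjusted p = 0.066, 0.20 and 0.096). The call of Thrsp was also lost with no filter on low counts (0.083) and without any 1 of BAT libraries 1, 6 and 7. Acaca, higher in BAT by 0.87, was called in 10 of 24 fits that left out 1 library and not with no filter (0.082). Fasn means were 1275 CPM in BAT, 3130 CPM in eWAT and 1718 CPM in liver, and none of its 3 tissue differences passed the test. Without BAT library 24 the BAT minus eWAT difference of Fasn did (-1.74, adjusted p = 0.028). Between BAT and eWAT 4 of 10 differed (34.5% of all genes), with Acacb and Mlxipl higher and Me1 and Acss2 lower in BAT. Between eWAT and liver 6 of 10 differed (55.5%), with Me1 and Slc2a4 higher and Acacb, Srebf1, Mlxipl and Thrsp lower in eWAT. These levels rest on scaling across tissues of very different composition, and libraries of 3 tissues share 1 fit.

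Compared per length of exon, the genes ranked differently within each tissue. In WT BAT at RT the mean level per kilobase was 2049 CPM for Thrsp, 1616 for Fasn, 683 for Acly, 321 for Me1, 173 for Acaca, 128 for Acacb, 107 for Slc2a4, 70.0 for Acss2, 51.9 for Srebf1 and 42.6 for Mlxipl. In WT BAT at TN, Thrsp (393 CPM per kilobase) and Fasn (116) still led, and Acss2 (10.4) was the lowest. In WT liver at RT, Thrsp led at 628 CPM per kilobase, followed by Srebf1 at 170, Mlxipl at 91.9, Fasn at 80.6 and Me1 at 77.8, and Slc2a4 was the lowest at 0.64. In WT eWAT at RT the leaders were Thrsp (510 CPM per kilobase), Fasn (440) and Me1 (326), and the lowest was Mlxipl (7.72).

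Likeness to Fasn was measured as the root mean square distance of centred log2(CPM + 1) over the 16 libraries of a tissue, among genes that varied at least 0.5 times as much as Fasn. Acly was the nearest gene in all 3 tissues, at distances of 0.45 in liver, 0.38 in BAT and 0.25 in eWAT. Elovl6 was among the nearest 5 in each. In liver the 5 nearest of 2657 genes were Acly, Elovl6, A4gnt, Gpam and Acaca. In BAT the 5 nearest of 458 genes were Acly, Slc2a5, Elovl6, Acot11 and Sorl1, and in eWAT the 5 nearest of 8253 genes were Acly, Elovl6, Acaca, Agpat2 and Pmm1. In liver, BAT and eWAT, Me1 ranked 6, 10 and 92, Acss2 ranked 9, 14 and 18, and Thrsp ranked 571, 40 and 319. Acaca ranked 11 in BAT. In liver and eWAT, Acacb ranked 362 and 213, Mlxipl 183 and 1944, and Slc2a4 520 and 202. In BAT, Acacb, Mlxipl and Slc2a4 varied too little to be ranked. Srebf1 varied too little to be ranked in any tissue. The libraries behind these distances share the housing and genotype differences given above, so the distances describe these libraries only.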

How the data were processed

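The authors deposited raw counts per gene for 48 libraries. Per the submitters' processing notes, the tools were fastp, STAR 2.6.1d and featureCounts 1.5.0-p3, with GRCm38 (mm10) as build. The strand setting is not given in the sources used here. Symbols came from the reference gene table, which named 91.8% of the identifiers (at least 94.8% of each library's counts), and lengths from GENCODE M21, in which 4675 identifiers were not found. The authors' annotation release is not given in the sources used here. No 2 libraries were identical.

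One model per tissue covered its 16 libraries, in edgeR 4.0.16 under R 4.3.3 (TMM, filterByExpr with a minimum count of 10, robust quasi-likelihood tests, two-sided). Differences between tissues were fitted over the 24 libraries of 1 genotype or housing. Benjamini-Hochberg adjustment ran over every gene tested, with a threshold of 0.05, and no gene list was tested as a set. All 10 genes were tested in every comparison, but not all are named in each, and those left out enter the counts only. From the 4 lists of pathway genes, up to 4 called genes per list and comparison are named, smallest adjusted p first. The genes, lists and markers were chosen with earlier results of these data known. CPM values are TMM-scaled, and marker sums use library totals. The procedure was tested on simulated data. Alternatives were DESeq2 1.42.0, every gene kept whatever its counts, RLE scaling, genes kept only with 1 CPM in at least 4 libraries, the replicate number as a block, a fit to only the 8 libraries a comparison uses, each library left out in turn and, added after seeing the data, BAT without 5 libraries rich in muscle transcripts.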

Additional observations from a re-analysis of the deposited data

Results flagged for a closer look

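Of 120 groups of 4 libraries (10 genes in 12 groups), 16 had a library whose gap to its nearest neighbour exceeded Dixon's 95% critical value for 4 samples. Chance flags about 1 in 20 groups, which is 6 here. Most of these flags were for high values at TN, and those came from the same few libraries, each flagged in several genes. Liver WT TN library 24 stood apart for Acaca (450 CPM), Acly (1297 CPM), Thrsp (2920 CPM), Mlxipl (751 CPM) and Slc2a4 (11.9 CPM). BAT WT TN library 24 stood apart for Fasn (2930 CPM), Acly (831 CPM) and Me1 (254 CPM), and BAT KO TN library 3 for Fasn (3173 CPM), Acly (894 CPM) and Acaca (789 CPM). Single libraries stood apart in 5 other groups. In liver these were Acss2 in WT RT library 18 (214 CPM, high), Fasn in WT RT library 15 (253 CPM, low), Acaca in KO TN library 2 (113 CPM, low) and Acly in KO TN library 22 (180 CPM, low). In BAT it was Srebf1 in KO RT library 9 (204 CPM, low).

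The difference between housings varied among BAT, liver and eWAT by an F test in edgeR for 7 genes in WT. Their adjusted p-values were 0.0031 for Fasn, 0.00034 for Acaca, 0.031 for Acacb, 0.0071 for Acly, 0.00023 for Me1, 0.016 for Thrsp and 0.000295 for Acss2. In KO the same test gave 0.0057 for Fasn, 0.0018 for Acaca, 0.040 for Acly, 0.00019 for Me1 and 0.00095 for Acss2. In each of these genes the BAT difference was the largest fall.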

How the results depend on the processing

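The BAT result held its direction and its count within 1.5 times under every alternative run, at 8 to 10 of 10 genes called lower in WT and 7 to 9 in KO. Without WT RT library 12 or WT TN library 6 the WT count was 8, and without the 5 muscle-rich libraries it was 8 in WT and 7 in KO. The smaller calls were less firm. DESeq2 called 1 of the 10 for genotype at RT in liver and 1 in BAT, 4 for genotype at TN in eWAT, 4 for housing in KO eWAT, and 1 at each housing for the tissue difference of the genotype effect, where edgeR called 0. For genotype at RT in eWAT, 1 was called with no filter on low counts and 1 with only the 8 libraries compared, and for housing in KO eWAT 1 was called with RLE scaling and 1 with the filter of at least 1 CPM in 4 libraries. Leaving out each library in turn gave 0 to 3 calls for genotype at RT in eWAT, 0 to 1 at TN in eWAT, 0 to 2 for housing in KO eWAT and 0 to 1 for genotype at RT in BAT. DESeq2 also called Slc2a4 for housing in KO BAT (adjusted p = 0.044), Slc2a4 for the tissue difference of the housing effect in WT (0.029) and Acacb for BAT minus liver at TN (0.028). The cause of these shifts was not tested.

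Without the 5 muscle-rich libraries, the genotype values at RT in BAT turned sign for Acacb (-0.083) and Slc2a4 (0.061), and those at TN for Acaca (0.26) and Acss2 (0.16). With only the 8 libraries compared, Slc2a4 in BAT at RT turned to 0.021. Other sign changes came when 1 library was left out, all in values that had not passed the test and did not pass it then. On the log2 scale, the ranges for KO minus WT in liver were, at RT, -0.25 to 0.18 for Acaca, -0.066 to 1.35 for Acacb, -0.22 to 0.074 for Srebf1, -0.46 to 0.019 for Me1 and -1.02 to 0.17 for Thrsp, and at TN -0.45 to 0.21 for Thrsp and -0.30 to 1.05 for Slc2a4. For TN minus RT in WT liver they were -0.11 to 1.43 for Acly, -0.20 to 0.21 for Srebf1, -0.073 to 0.29 for Mlxipl, -0.42 to 0.23 for Me1, -0.13 to 0.75 for Thrsp and -0.076 to 1.27 for Slc2a4. In KO liver they were -0.076 to 0.11 for Acaca, -0.17 to 0.63 for Acacb, -0.36 to 0.027 for Acss2 and -0.048 to 0.64 for Slc2a4. For KO minus WT in BAT they were -0.14 to 0.065 for Slc2a4 at RT, and at TN -0.66 to 0.95 for Fasn, -0.62 to 0.20 for Acaca, -0.67 to 0.95 for Acly and -0.20 to 0.23 for Acss2. Srebf1 in KO BAT ranged from -0.071 to 0.25 for TN minus RT, and the BAT interaction of Fasn from -0.27 to 1.34. In eWAT, KO minus WT ranged at RT from -0.093 to 0.073 for Srebf1 and -0.23 to 0.073 for Me1, and at TN from -0.026 to 0.21 for Srebf1. The eWAT interactions ranged from -0.28 to 0.046 for Acaca and -0.17 to 0.038 for Slc2a4. Between tissues of WT mice, eWAT minus liver ranged from -0.21 to 1.03 for Acacb at RT and -0.88 to 0.46 for Acly at TN, BAT minus liver at TN from -1.38 to 0.36 for Fasn and -1.38 to 0.59 for Acly, and BAT minus eWAT at TN from -0.77 to 0.28 for Acly.

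Libraries of different tissues share replicate numbers, and the labels do not say that a number marks a mouse. Over 35 same-number pairs the correlation of deviations from the group means had a median of 0.08 (range -0.27 to 0.27). Of these pairs, 13 were over 0.1 and 14 were the best match in their group. These values do not settle whether a number marks a mouse. The main tests therefore left the numbers unpaired, and a possible pairing entered only as the block. With the replicate number as a block, the housing difference varied among tissues for 6 genes in WT (without Acacb, adjusted p = 0.101) and 4 in KO (without Acly, adjusted p = 0.074). Of tissue levels at TN in WT, the block called Fasn for BAT minus eWAT (-1.72, adjusted p = 0.012) and, for eWAT minus liver, Fasn (1.25, adjusted p = 0.024), Acaca (0.043) and Acss2 (0.016), and lost Acacb (0.059). At RT it called Acss2 for BAT minus eWAT (0.043) and Acly for eWAT minus liver (0.0021). Acly at TN turned to -0.78 for BAT minus eWAT and to 0.42 for eWAT minus liver. Between libraries of a group, the chi-square per degree of freedom over all but the lowest-count genes was at least 17.1, so the spread exceeded counting noise. The parts of mouse, dissection and sequencing depth in the spread of the 10 genes were not separated. Slc2a4 in liver was at only 1.10 to 11.9 CPM.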
